A study of Caenorhabditis elegans with 2 samples.

Results

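The synapse and neuronal identity genes examined here are 32 named genes of Caenorhabditis elegans, all found by symbol among the 19973 nuclear protein-coding genes of the Ensembl release 115 annotation of WBcel235, the assembly also called ce11. They were chosen by name, as genes of synaptic vesicle release, transmitter synthesis and transport, neuropeptide processing, touch neuron fate and axon structure, and no measured threshold is part of the rule. The choice was made with earlier results of these data known. One of them, unc-119, is the rescue marker of the strain and is given on its own, which leaves 31. The data were peaks from chromatin immunoprecipitation with sequencing (ChIP-seq) of whole worms of strain OP636, genotype unc-119(tm4063) III; wgIs636, in which an integrated transgene makes the T-box transcription factor TBX-9 with GFP and FLAG at its C-terminus. An anti-GFP antibody was used. The worms were young adults of pooled sex, collected 63 hours after synchronization as starved L1 larvae, and the 2 libraries are biological replicates 1 and 2 of this 1 group. There was no second genotype, stage or condition, and a control experiment that the labels name was not analysed here. The sources used here do not give the promoter or the cells that express the transgene. Since whole animals were used, a peak at a neuronal gene cannot be assigned to neurons.

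Neurons release transmitter when vesicles that carry synaptobrevin dock at the plasma membrane and pair with syntaxin and SNAP-25, a step prepared by factors such as UNC-13 and UNC-18 and organised at the active zone. Each neuron class also makes the enzymes and transporters of its own transmitter under terminal selector transcription factors, such as UNC-86 and MEC-3 in the touch receptor neurons. TBX-9 is known from embryonic morphogenesis, and T-box proteins recognise sites with the core GGTGTG.

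For each gene, the peak with the highest deposited signal value was taken among peaks whose summit lay within 1000 bp of an annotated transcript start (a start peak), in 4 lists. The relaxed lists, which the authors made to hold background as well as peaks, had 30000 peaks for both libraries pooled, 25659 for replicate 1 and 30000 for replicate 2. The list past the irreproducible discovery rate (IDR) threshold had 169. Rank 1 is the highest signal of a list, and ranks of different lists are set side by side as descriptions. Read depth is unknown, and signal values are compared only within a list. Mitochondrial peaks numbered 14 in replicate 1, 10 in the pooled list and 0 in replicate 2, and without them the pooled median rank given below was 12302.5.

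A start peak was present in the pooled list for 20 of the 31 genes, 64.5%, beside 51.5% of all coding genes. Replicate 1 had a start peak for 18 of the 31, beside 47.4% of coding genes, and replicate 2 for 20, beside 51.4%. Both replicates had one for 13, 41.9%, beside 32% of coding genes, 6386 of 19973. The strongest start peaks of both replicates overlapped by at least 1 bp for 6 genes, 19.4%, beside 16.2%. These 6 were snb-1, unc-18, ric-19, unc-25, cat-2 and mec-4. The genes have a median of 2 annotated starts against 1 for coding genes, which gives more windows per gene. With the outermost start of each gene alone, 16 of 31 had a pooled start peak, 51.6%, beside 47.8%.

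Most pooled start peaks at these genes stood beyond rank 5000, and so did most of those at coding genes. The median pooled rank was 12312.5 over the 20 genes with a start peak and 11387 over the 10281 coding genes with one. In replicate 1 the medians were 11255.5 over 18 genes and 10105.5 over coding genes, and in replicate 2 they were 7087 over 20 genes and 11752.5. The genes' median was thus further down than that of coding genes in the pooled list and replicate 1, and further up in replicate 2. The deposited q of the pooled start peak was 0.0137 for snb-1 and unc-31 and 0.0502 for unc-25. For the other genes it ran from 0.246 (unc-18) to 0.954 (unc-86). At rank 5000 or better in the pooled list there were 5 of the 31, 16.1%, beside 13.2% of coding genes: snb-1, unc-31, unc-25, unc-18 and mec-7. Just inside the limit of 1000 bp lay the pooled summits of snb-1 at 915 bp, unc-44 at 943 bp and unc-64 at 963 bp, and just outside it summits of sbt-1 at 1015 bp, mec-7 at 1027 bp and unc-18 at 1034 bp.

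**Figure D1:**
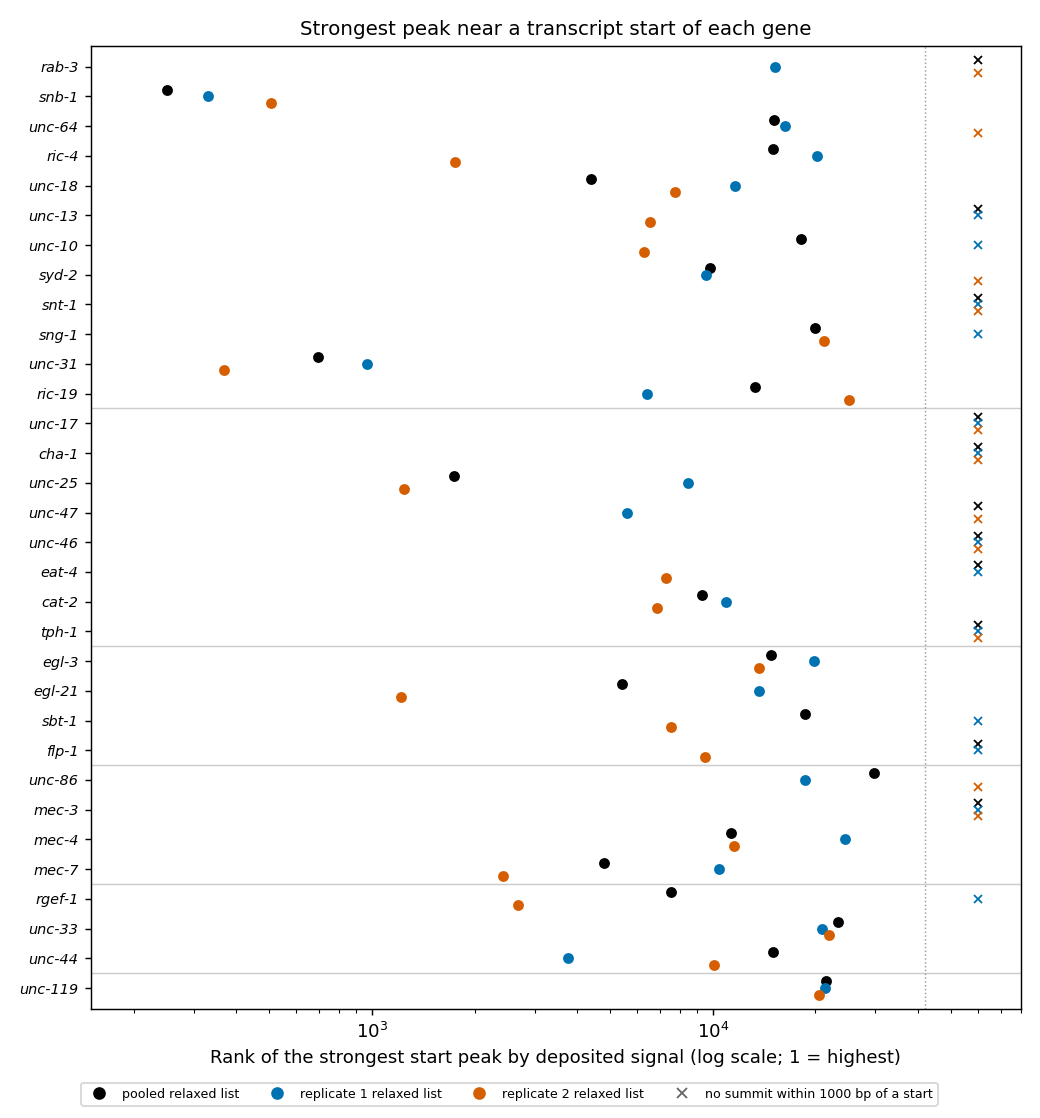
Rank of the strongest start peak (log scale, 1 is the highest signal) for each gene in the pooled, replicate 1 and replicate 2 relaxed lists, with genes ordered by role, grey lines between roles and crosses for no summit within 1000 bp of a start. snb-1 and unc-31 lie at rank 964 or better in all 3 lists, most other points lie beyond rank 5000, and snt-1, unc-17, cha-1, unc-46, tph-1 and mec-3 have crosses in all 3.

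Sequence around the pooled summit follows for snb-1, the gene with an IDR peak, and for unc-25, unc-18, mec-7 and egl-21, which are among the best by pooled rank, to show which bases lie under the strongest peaks. Except for snb-1, windows reach up to 100 bp on either side of the summit and are cut where an annotated UTR begins. All are written 5′ to 3′ on the strand of the gene, from the RefSeq sequence of WBcel235. Capitals mark GGTGTG or its other strand, CACACC. For snb-1 the summit itself lies in a 3′ UTR and is not in the stretch shown, which begins just beyond the gene end and lies wholly on that side of the summit.
snb-1, chrV:6655461-6655561, minus strand: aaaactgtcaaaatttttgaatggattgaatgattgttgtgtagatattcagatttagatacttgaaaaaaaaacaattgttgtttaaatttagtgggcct
unc-25, chrIII:12942493-12942650, plus strand: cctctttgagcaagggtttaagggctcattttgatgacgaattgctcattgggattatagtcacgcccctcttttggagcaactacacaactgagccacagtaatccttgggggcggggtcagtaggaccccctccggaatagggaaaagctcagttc
unc-18, chrX:7683663-7683863, plus strand: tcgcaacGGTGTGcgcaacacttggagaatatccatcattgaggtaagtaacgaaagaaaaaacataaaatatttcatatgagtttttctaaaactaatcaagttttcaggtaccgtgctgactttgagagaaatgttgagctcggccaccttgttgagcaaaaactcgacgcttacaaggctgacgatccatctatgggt
mec-7, chrX:7776870-7777030, minus strand: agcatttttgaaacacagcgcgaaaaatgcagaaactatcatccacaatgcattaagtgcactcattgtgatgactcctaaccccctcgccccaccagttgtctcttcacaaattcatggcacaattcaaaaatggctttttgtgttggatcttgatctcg
egl-21, chrIV:10481845-10481975, minus strand: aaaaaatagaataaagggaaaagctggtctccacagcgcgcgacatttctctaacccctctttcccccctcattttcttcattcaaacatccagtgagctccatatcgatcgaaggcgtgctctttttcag
The summit is base 101 of the unc-25, unc-18 and egl-21 windows and base 61 of the mec-7 window. The snb-1 stretch has 25.7% G and C, and the others between 40.3% (unc-18) and 50.6% (unc-25).

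The T-box core was found within 100 bp of 1 of these summits and within 50 bp of 0. Windows of 100 bp on either side of the strongest pooled start summit were read on both strands for GGTGTG. Of the 20 genes, unc-18 alone held it, 5.00% beside 5.68% of coding genes. The longer forms GGTGTGA and AGGTGTGA, which contain it, were found at 0 of the 20, beside 1.66% and 0.409% of coding genes. In 20 windows a single match makes 5.00%. A match in these letters is a description of the window and not a binding site.

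Among the 12 genes of vesicle release, 9 had a pooled start peak, 5 had one in both replicates and 1 had an IDR peak, beside 51.5%, 32% and 0.501% of coding genes. The exceptions in the pooled list were rab-3, which encodes the vesicle GTPase RAB-3, unc-13, which encodes the priming factor, and snt-1, which encodes synaptotagmin, the calcium sensor. The 9 ran from rank 250 to rank 19908, with a median of 13284.

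snb-1 encodes synaptobrevin, the vesicle SNARE, and was the gene of the 31 with an IDR peak, 1 of 31 or 3.23%, beside 0.501% of coding genes. It lies on chromosome V from 6655562 to 6656501 on the minus strand. Its IDR peak, from 6655391 to 6655780, had signal 112.7, rank 137 of the 169 and a deposited q of 0.0549. The start peak stood at rank 330 in replicate 1 with signal 49.2 and at rank 505 in replicate 2 with signal 32.9, and at rank 250 in the pooled list with signal 83.0. Replicate summits were 25 bp apart. They lay 928 and 953 bp downstream of the only annotated start, at the end of this short gene: the pooled and IDR summit was in the 3′ UTR, 24 bp from the gene end, and the replicate 2 summit just beyond it. The start of the neighbouring gene syx-18, which encodes a syntaxin, lay 137 bp from the pooled summit. Peaks upstream of snb-1 itself were weaker. A pooled summit 779 bp upstream stood at rank 3711 and one 141 bp upstream at rank 9739. The first had counterparts at rank 4656 (replicate 1) and rank 11946 (replicate 2), and the second had one in replicate 2, at rank 9929.

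unc-31 encodes CAPS, which acts in the release of dense core vesicles, and spans 14.49 kb of chromosome IV with 5 annotated starts. Its strongest start peak stood at rank 696 in the pooled list (signal 61.5), rank 964 in replicate 1 (37.3) and rank 367 in replicate 2 (35.5). The replicate 1 and replicate 2 peaks were not the same: their summits were 1166 bp apart, and the pooled peak had a weaker counterpart in replicate 2 at rank 1401. These summits were in introns in the last part of the gene, upstream of internal starts. At the outermost start, replicate 2 alone had a summit on the upstream side, 203 bp away at rank 17096, and the pooled list had one 488 bp downstream, in a coding exon, at rank 22353.

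The strongest unc-31 peaks had their summits in or beside snRNA genes, of which the annotation places 3 within introns of unc-31. The 3 strongest pooled summits in unc-31, at ranks 696, 1988 and 2119, lay 67 bp from an snRNA gene, inside one and 50 bp from one. In replicate 1 the summit at rank 964 lay 67 bp from an snRNA gene and the one at rank 4440 inside one. In replicate 2 the summit at rank 367 lay inside an snRNA gene and the one at rank 1401 lay 55 bp from one. The remaining pooled summits in unc-31 stood at rank 11238 or lower. How far the unc-31 peaks belong to the snRNA genes was not tested.

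**Figure D2:**
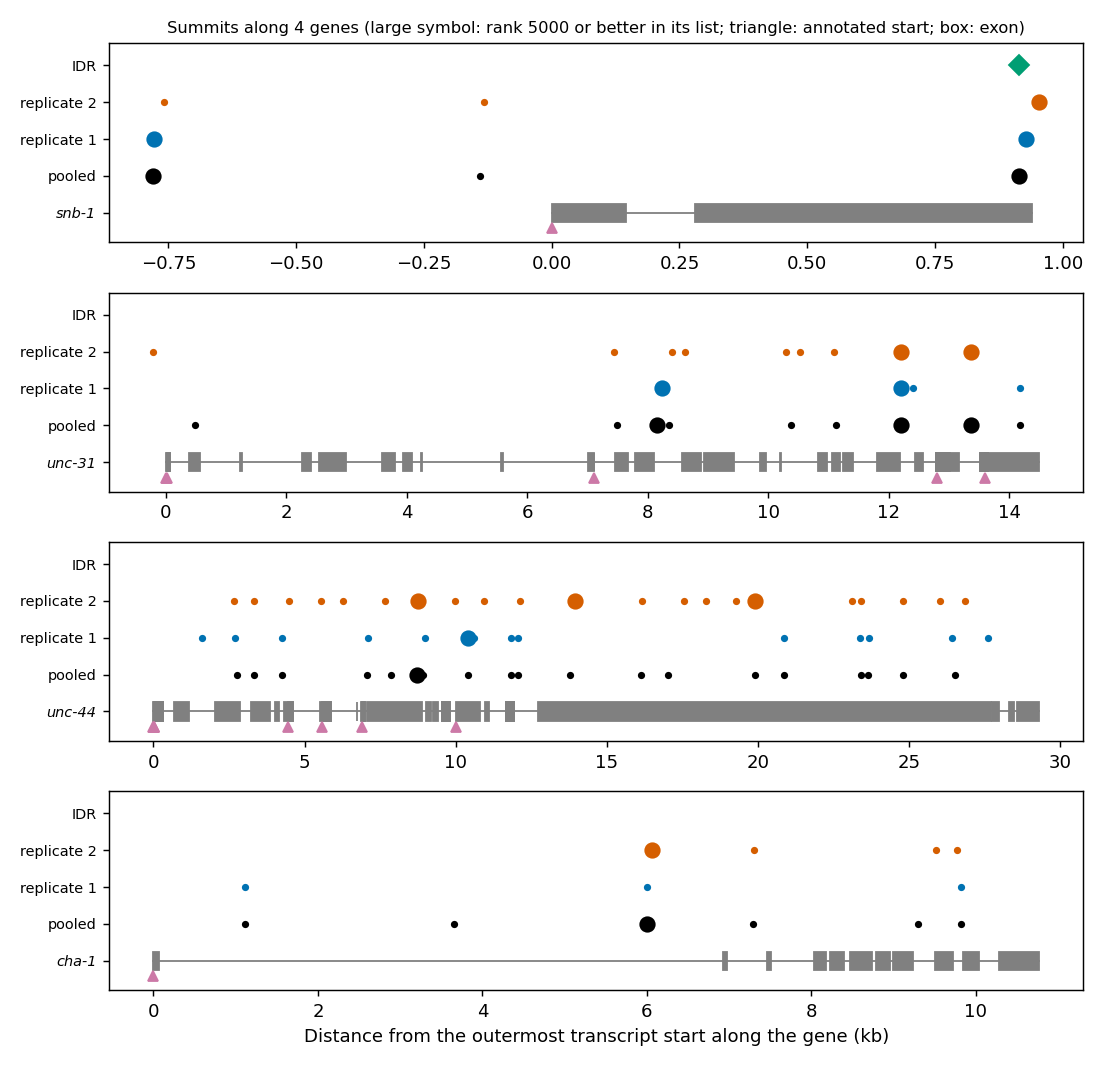
Summits along snb-1, unc-31, unc-44 and cha-1 in the 4 lists, by distance in kb from the outermost transcript start in the direction of transcription, with exons as boxes and annotated starts as triangles. Large symbols mark rank 5000 or better in a list. In unc-31 they lie between 8149 and 13361 bp from that start, in snb-1 at the 3′ end and upstream, and the IDR row has a symbol in snb-1 only.

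unc-18, the syntaxin-binding partner, had a start peak in an intron 831 bp downstream of its closest start, on X, at rank 4390 in the pooled list, 11613 in replicate 1 and 7771 in replicate 2. The summits of the replicates were 11 bp apart, the closest of any of these genes, although both replicate peaks were weak. For ric-4, which encodes SNAP-25, the pooled start peak stood at rank 14998, and the strongest peaks of the replicates lay at different starts. Replicate 2 had rank 1753 at 19 bp from an internal start, in a 5′ UTR, and replicate 1 had rank 20202 at 43 bp from the outermost one, with 7547 bp between the summits. Their ranks differed 11.5-fold, more than for any other gene with a start peak in both.

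unc-64, which encodes syntaxin, had pooled rank 15097 at 963 bp upstream and rank 16253 in replicate 1 at another position, with none in replicate 2. A stronger peak lay inside the gene, in its 3′ UTR 223 bp from the gene end, at rank 574 in the pooled list (signal 65.4), 373 in replicate 1 and 4488 in replicate 2. unc-10, which encodes the active zone protein RIM, had a start peak 331 bp upstream at pooled rank 18198 and rank 6294 in replicate 2, and none in replicate 1. syd-2, which encodes liprin-alpha of the active zone, had one 369 bp upstream at pooled rank 9800 and rank 9550 in replicate 1, within the ncRNA gene F59F5.9, and none in replicate 2. sng-1, which encodes synaptogyrin, had pooled rank 19908 and rank 21258 in replicate 2. ric-19, which acts in dense core vesicle maturation, stood at 13284 in the pooled list, 6424 in replicate 1 and 25053 in replicate 2, with summits 735 to 981 bp upstream, and the start of pmlr-1 lay closer to each summit.

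Of the 3 release genes with no pooled start peak, rab-3 had one in replicate 1 at rank 15201 and unc-13 had one in replicate 2 at rank 6563, 408 bp downstream of an internal start. snt-1 had no summit near a start or inside the gene in any list.

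Of the 8 transmitter enzymes, transporters and sorting factors, 2 had a pooled start peak, unc-25 and cat-2, beside 51.5% of coding genes. The same 2 had one in both replicates, beside 32%. Each replicate had one for 3 of the 8, beside 47.4% (replicate 1) and 51.4% (replicate 2). The count is small, and unc-17 and cha-1 share a start region but are counted as 2 genes. In the wider list below, 11 of 24 transmitter enzymes, transporters and receptors had a pooled start peak, 45.8%. That group includes receptors, which the 8 do not.

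unc-25 encodes glutamate decarboxylase, which makes GABA. Its pooled start peak had signal 47.6, rank 1742 and a deposited q of 0.0502, with the summit 58 bp upstream of the start at 12942651 on III. Replicate 2 had the same summit at rank 1245 (signal 26.5, q of 0.00811), and replicate 1 one 32 bp away at rank 8461 (signal 21.1, q of 0.519). Among the 20 genes, it had the best pooled rank at a summit within 250 bp of a start. cat-2, which encodes tyrosine hydroxylase of dopamine synthesis, had pooled rank 9302 at 34 bp downstream of a start, rank 10898 in replicate 1 and rank 6864 in replicate 2, with replicate summits 181 bp apart.

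unc-47, the vesicular GABA transporter, had a start peak in replicate 1 alone, at rank 5594, and eat-4, the vesicular glutamate transporter, in replicate 2 alone, at rank 7310. They lay in coding exons, 803 and 928 bp downstream. unc-46, which sorts UNC-47 to vesicles, and tph-1, the tryptophan hydroxylase of serotonin synthesis, had none in any list, nor any summit inside the gene. unc-17, the vesicular acetylcholine transporter, and cha-1, choline acetyltransferase, form the cholinergic locus on IV, where the starts lie 2 bp apart (3624699 and 3624697) and unc-17 lies within cha-1 but for those bases. Neither had a start peak in any list. The first pooled summit inside the locus lay 1112 bp from the unc-17 start, at rank 17129. Inside the locus the strongest pooled peak stood at rank 3551, in a coding exon of unc-17 that is intron of cha-1, at rank 9337 in the first replicate and 4529 in the other. The locus held 6 pooled summits, of which 3 lay in unc-17.

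All 4 neuropeptide genes had a start peak in replicate 2, 2 had one in replicate 1, and 3 had one in the pooled list, beside 51.4%, 47.4% and 51.5% of coding genes. With 4 genes these counts rest on few loci. egl-21, which encodes carboxypeptidase E, had pooled rank 5398 at 31 bp upstream of its start (q of 0.316). Its replicate peaks differed and did not overlap. Replicate 1 had rank 13650 at 40 bp downstream (q of 0.723) and replicate 2 rank 1214 at 486 bp upstream (q of 0.00811). egl-3, the proprotein convertase, had pooled rank 14794, and its replicate summits lay 2014 bp apart at different starts. sbt-1, the 7B2 chaperone of that convertase, had pooled rank 18621 at 86 bp upstream and was absent near the start in replicate 1. flp-1, an FMRFamide-like peptide gene, had a start peak in replicate 2 alone, at rank 9498.

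Of the 4 touch neuron genes, 3 had a pooled start peak, beside 51.5% of coding genes, and mec-7 and mec-4 had one in both replicates, beside 32%. For unc-86 there was one in replicate 1, and for mec-3 in neither. mec-7 encodes a beta-tubulin of touch receptor microtubules. Its pooled peak stood at rank 4803, 281 bp upstream (q of 0.275), and replicate 2 had the same summit at rank 2420 (q of 0.0279). The strongest start peak of replicate 1 lay elsewhere, 853 bp downstream in a coding exon, at rank 10451 (q of 0.612). mec-4 encodes the touch channel subunit. Its start peak stood 324 bp upstream at pooled rank 11341, rank 24419 in replicate 1 and rank 11552 in replicate 2, with replicate summits 22 bp apart. A stronger peak lay in a coding exon of mec-4, at pooled rank 1194, rank 1416 in the first replicate and 5411 in the other. unc-86, the POU homeobox terminal selector, had the lowest-ranking start peak of the 20, at pooled rank 29814 of 30000. mec-3, the LIM homeobox factor that acts with it, had no summit near a start or inside the gene in any list.

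Of the 3 axon and panneuronal genes, 3 had a pooled start peak, beside 51.5% of coding genes. rgef-1, a Ras guanine nucleotide exchange factor gene used as a panneuronal marker, had pooled rank 7538 at 128 bp upstream (q of 0.442). In replicate 2 it had rank 2678 (q of 0.0379), and in replicate 1 it had no start peak. unc-44, which encodes ankyrin, has 8 starts. Its start peak stood at pooled rank 15052, rank 3751 in replicate 1 and rank 10106 in replicate 2, and the replicate summits lay 514 bp apart. unc-33, which encodes a CRMP that organises axonal microtubules, had pooled rank 23241, 20877 in replicate 1 and 21930 in replicate 2, and the replicate summits lay 1779 bp apart.

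**Figure D3:**
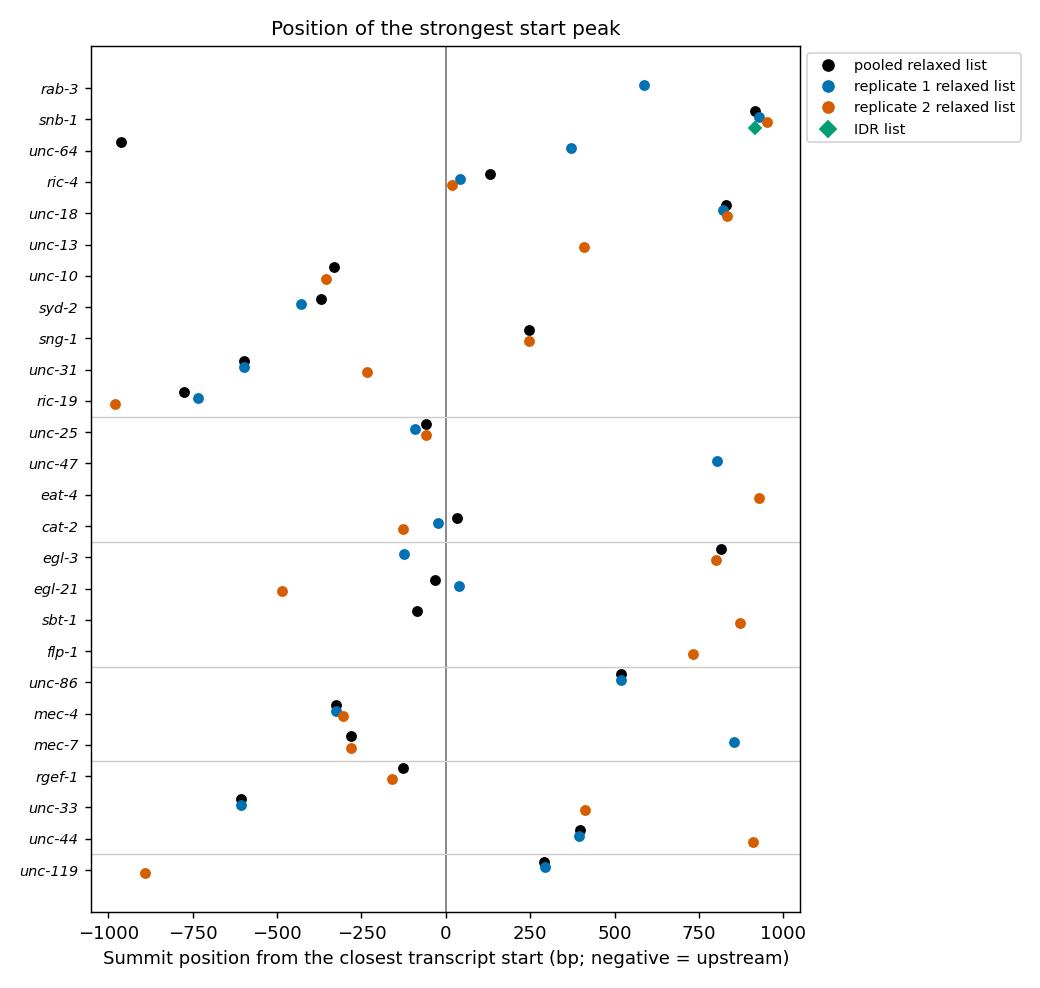
Position of the strongest start summit relative to the closest annotated transcript start in bp (negative is upstream), per list, for genes with a start peak in at least 1 list, with vertical offsets that only separate the lists. Points of different lists coincide for snb-1, unc-18, unc-25 and mec-4 and lie far apart for mec-7, unc-33 and egl-21, while a shared distance can belong to different starts, as for ric-4.

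Of the 20 pooled start summits, 12 were within 500 bp of a start and 12 were upstream, 60.0%, beside 44.4% for coding genes with a start peak. By annotation, 10 lay outside the gene, 5 in introns, 4 in coding exons and 1 in a 3′ UTR. Another coding gene had a closer start for 2 of the 20. A noncoding gene lay within 250 bp for 2, unc-31 and syd-2, and a tRNA or snoRNA gene for 0. Shares of coding genes' strongest start peaks were not counted for the 500 bp limit, the annotated place, the closer start or the noncoding genes. Of the 20 pooled peaks, 7 overlapped a peak of both replicates, 6 of replicate 1 alone and 7 of replicate 2 alone, so 35.0% were present in both, beside 43.8% of coding genes' pooled start peaks.

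X-linked genes all had a pooled start peak, 6 of 6, beside 55.9% of X-linked coding genes. They were unc-18, unc-10, syd-2, sng-1, mec-4 and mec-7. For autosomal genes the count was 14 of 25, 56.0%, beside 50.8%. With 6 genes the X share rests on few loci, at pooled ranks from 4390 to 19908. No summit near a start in any list was found for 6 of the 31, 19.4%, beside 30.6% of coding genes.

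More of the 31 genes had a summit inside the gene than near a start, and they are longer than most coding genes. A pooled summit lay inside 24 of the 31 genes, 77.4%, beside 52.4% of coding genes, while the median length was 4.58 kb against 2.03 kb. Per 100 kb of gene the 31 held 40.6 pooled summits, 83 in 204.4 kb, and coding genes 34. In replicate 1 the values were 30.8 and 28.1, and in replicate 2 they were 41.6 and 34.4. The sums count the 3 unc-17 summits again in cha-1. A pooled summit at rank 5000 or better lay inside 12 genes, 38.7%, beside 13.6%, and per 100 kb there were 7.34 such summits beside 5.39. The part of gene length in these shares was not tested. The best pooled peak inside each of those 12 genes overlapped a peak of both replicates in 10 genes and of replicate 1 alone in the other 2, with unc-17 and cha-1 sharing 1 peak. The same share over coding genes was not counted. In unc-10 the best pooled peak lay in a coding exon at rank 3322, with ranks 7079 and 12238 in the replicates. In unc-33 it lay in an intron at pooled rank 3992, within 250 bp of the ncRNA gene Y37E11C.3, with ranks 6328 and 3717 in the replicates. The other 2 genes were mec-7 and eat-4. In mec-7 the peak at pooled rank 2055 overlapped one in replicate 1, at rank 1759, and none in replicate 2. In eat-4 the peak at pooled rank 4372 overlapped one in replicate 1, at rank 2688, and likewise none in replicate 2.

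unc-44 is 29.30 kb long and held 19 pooled summits, 14 in replicate 1 and 21 in replicate 2. The best pooled one stood at rank 3903, in a coding exon, 202 bp from the piRNA gene 21ur-8016. It overlapped a replicate 1 peak at rank 20144 (signal 15.4) and a replicate 2 peak at rank 2062 (signal 23.5). The summit of that replicate 1 peak lay closer to another pooled summit in unc-44, at rank 5770. unc-13 is slightly longer, 31.33 kb, and held 1 pooled summit, 1 in replicate 1 and 4 in replicate 2. The 7 genes with 0 pooled summits inside were snt-1, ric-19, unc-47, unc-46, tph-1, flp-1 and mec-3. unc-31 held 9 pooled summits, and unc-25 and cha-1 held 6 each. Of the 83 pooled summits, 10 were in 3′ UTRs, 1 was in a 5′ UTR, 33 were in introns (39.8%) and 39 in coding exons. Of the 21905 summits inside coding genes, 6.25% were in 3′ UTRs, 42.6% in introns and 48.1% in coding exons. The 3′ UTR summits included those of snb-1 and unc-64 described above, rgef-1 at pooled rank 7917 and rab-3 at rank 19745.

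**Figure D4:**
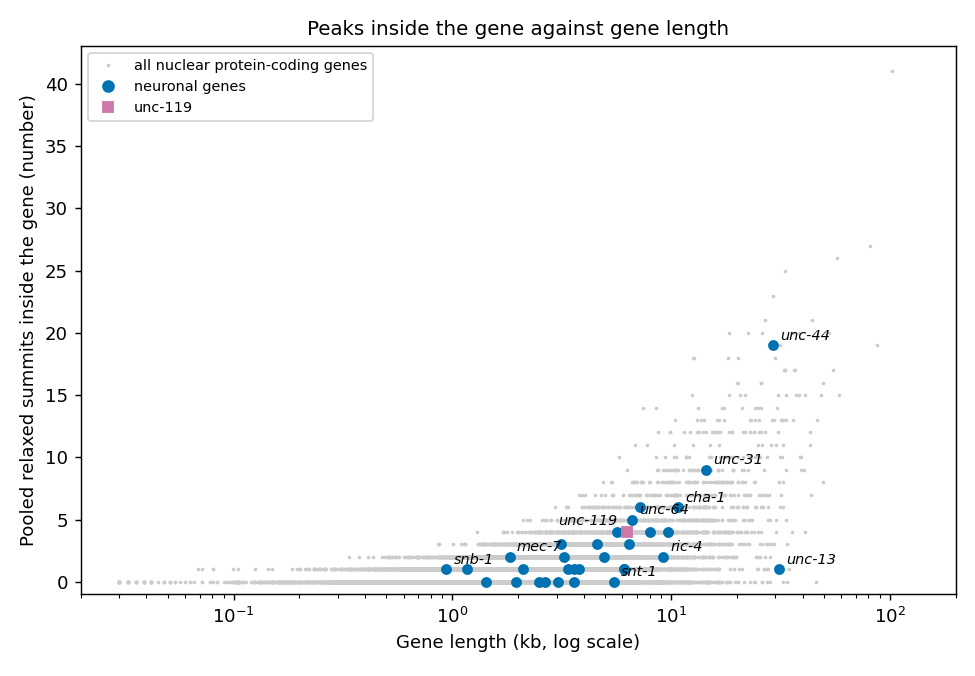
Number of pooled relaxed summits inside each gene against gene length in kb (log scale), for all nuclear protein-coding genes in grey, the neuronal genes in blue and unc-119 as a square. The neuronal genes lie within the grey cloud, with unc-44 at 19 summits and unc-13 at 1 for nearly the same length.

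unc-119, needed for axon structure and used to rescue unc-119(tm4063) in transgenic strains, lies on III from 10902641 to 10908935. Its strongest start peak was weak in every relaxed list: rank 21451 in the pooled list with signal 21.6, rank 21297 in replicate 1, and rank 20456 in replicate 2 with signal 11.5. The pooled and replicate 1 summits lay in an intron 291 and 295 bp downstream, and the replicate 2 summit 892 bp upstream, so the replicates did not overlap. Inside the gene there were 4 pooled summits, 2 in replicate 1 and 0 in replicate 2, and there was no IDR peak. Which copies of unc-119, at the locus or in the transgene, gave these reads cannot be told apart in the files used.

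Other neuronal genes, 125 found of 126 names written down for this comparison, gave the following counts. A pooled start peak was present for 76, 60.8%, beside the 51.5% of coding genes, and 45 had one in both replicates, 36%, beside 32%. Past the IDR threshold there were 0, beside 0.501%. At rank 5000 or better stood 18, 14.4%, beside 13.2%. The median pooled rank was 11223 over the 76. By group, pooled start peaks were present at 10 of 16 genes of the release machinery, 9 of 13 of the active zone, 10 of 13 of axonal transport and structure, 11 of 24 of transmitter enzymes and receptors, 10 of 18 of neuropeptides, 5 of 7 touch neuron genes, 11 of 22 neuronal transcription factors and 10 of 12 panneuronal and channel genes. The best ranks were those of unc-108, the RAB-2 GTPase (111, with mpc-2 at a closer start), egl-30, the Gq alpha subunit (648), mec-17, a tubulin acetyltransferase (745, in its 3′ UTR), and the neuropeptide genes nlp-40 (817) and nlp-12 (1375). Each of these 5 peaks overlapped a peak at rank 2750 or better in both replicates.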

How the data were processed

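The 4 ce11 peak lists used were made by the authors. Text files that accompany the deposited lists say that relaxed peaks were derived from library and control alignments, and IDR peaks from those. Aligner and caller: not given in the sources used here. Each peak's signal value is a score set by the authors, with unknown scaling for depth. The authors' −log10 q values, read by the narrowPeak column order, were converted to q. No read counts were used, so depth is unknown.

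Summits were the peak start plus the deposited offset, written counting from 1, and were set against WBcel235, the assembly also called ce11. Lists made on ce10 were not used. Genes, starts, exons and UTRs came from Ensembl release 115, and sequence from RefSeq. The sequence at the unc-31 summit is not reported here. Lookups used Python 3.11.15 and were tested on planted peaks. Figures used matplotlib 3.10.9.

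The members and gene lists were chosen with earlier results of these data known, so no test was run: counts, ranks and medians stand beside those of all 19973 coding genes. Called here means having a peak as defined. Genes described singly were unc-119, those with an IDR peak, the 8 best pooled ranks, the 4 largest replicate rank ratios, the 3 with most pooled summits inside, unc-17 and cha-1, those with no start peak, and the 5 best of the wider list. The remaining members are given by their main values, and the strong peaks inside unc-64, mec-4, mec-7, eat-4, unc-10 and unc-33 were picked after their values were seen. Alternatives changed distance, position, peak number, starts, overlap, window and replicate.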

Additional observations from a re-analysis of the deposited data

How the results depend on the processing

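Of 30 alternatives, 19 left a count within 1.5 times of the reported one, or a median within the spread of the replicates, and 11 moved it further. Those that leave out 1 replicate are among the 30, but they only return the other replicate's own list. For these changes the cause was not tested, except that fewer peaks or shorter windows leave fewer genes by construction. The count of 20 genes with a pooled start peak was 12 at 250 bp (38.7%, beside 22.7% of coding genes), 9 with the 10000 strongest peaks (29.0% beside 23.1%) and 5 with the 5000 strongest. At 500 bp it was 16 (51.6% beside 35.4%) and at 2000 bp 24 (77.4% beside 69.1%). These counts take every annotated start, of which the genes have a median of 2 against 1 for coding genes. With the outermost start alone, at 1000 bp, the count was 16 (51.6% beside 47.8%). With all starts and 1 replicate left out it was 18 to 20, the counts of the replicate lists given above. Shares of coding genes at altered settings were counted for pooled start peaks alone, so the counts that follow have none beside them. The count of 13 in both replicates was 8 at 500 bp and 3 with the 10000 strongest peaks. The 6 overlapping replicate peaks were 3 at 500 bp. The 1 gene with an IDR summit, snb-1, was lost, leaving 0, at 500 bp and with the higher-signal part of the IDR list. The replicate lists alone had a summit inside the gene for 22 genes (replicate 1) and 24 genes (replicate 2). Their median ranks were 11255.5 and 7087, each within its own list, and 12312.5 was that of the pooled list. GGTGTG stood in 0 windows within 50 bp and in 3 within 200 bp. No paired analysis was possible because there is 1 group and no test.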
